A study of Rattus norvegicus with 6 samples.

Results

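The genes of the cytosolic ribosomal proteins were examined in rat hippocampal tissue after 90 min of GABA-A receptor blockade. They were taken as all probe sets whose only gene symbol in the platform annotation begins with Rpl or Rps and continues with a number, optionally followed by a or l, or is Rplp0, Rplp1, Rplp2 or Rpsa. This gave 50 probe sets of 44 genes, of 31099 probe sets and 14218 singly named genes on the array. Of these, 17 probe sets of 14 genes encode the small subunit (Rps and Rpsa) and 33 probe sets of 30 genes the large subunit (Rpl and Rplp0). The rule uses gene names and no measured value.

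The tissue was organotypic hippocampal culture, slices of hippocampus kept alive in roller tubes, from Wistar rats labelled P4 (postnatal day 4). In 3 arrays the cultures had received 20 µM gabazine, a GABA-A receptor antagonist, for 90 min (GabT), and in the other 3 arrays they were left untreated (control). Each of the 3 biological replicas divided the cultures of a pair of littermates between both conditions, so the pair is the unit of comparison, and no transgene or genetic change was involved. Total RNA was labelled with biotin and hybridized to Affymetrix RAT2302 arrays, on which a probe set is a group of short oligonucleotides against the 3′ part of a transcript. Values are log2 intensities, and a log2 ratio is the difference of GabT minus control within a replica. A whole culture holds neurons and glia together, so more RNA per cell and more cells of a type cannot be told apart.

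A ribosome is built from a small subunit, which reads the mRNA, and a large subunit, which joins the amino acids. Most of their proteins are present once per ribosome and are made in step with one another. In mammals the mRNAs of ribosomal proteins typically start with a C followed by an unbroken run of C and T (a 5′ terminal oligopyrimidine tract, TOP), through which the mTOR pathway controls their translation more than their amount. In neurons, synaptic activity is known to act on this pathway, and ribosomal protein mRNAs are also found in dendrites and axons.

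The starts of the genes that the results below turn on are shown first, because the TOP tract is the sequence that this family shares and that the choice by name did not use. RefSeq promoter windows on the build GRCr8 were found for 39 of the 44 genes. The window runs from 15 bases before the annotated start to 15 bases from it onwards, so that the 16th letter is the annotated first base. Capitals mark the longest unbroken run of C and T on the gene's own strand. Shown are those of the 5 genes with the smallest p in each direction that have an entry, 9 genes in all. Rps13 lies at chr1:180009646-180009675 (minus strand), Rpl11 at chr5:153560788-153560817 (minus strand), Rps3 at chr1:163195762-163195791 (minus strand), Rps9 at chr1:74430423-74430452 (minus strand) and Rpl7a at chr3:30637121-30637150 (plus strand). Rpl39 lies at chrX:121195882-121195911 (minus strand), Rps3a at chr2:173827028-173827057 (minus strand), Rps27l at chr8:76443643-76443672 (plus strand) and Rpl28 at chr1:78083518-78083547 (minus strand).
Rps13: gccgtttcctacctcgTTCTCTCTTTgctt
Rpl11: ggggaCTTgaagcttgtttggtgctgggga
Rps3: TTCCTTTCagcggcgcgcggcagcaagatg
Rps9: tccggcggccacgTTTCTCTTTgtcacggg
Rpl7a: CTCTCCTCCagccgagcaagatggtgagtg
Rpl39: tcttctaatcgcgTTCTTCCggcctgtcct
Rps3a: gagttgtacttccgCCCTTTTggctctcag
Rps27l: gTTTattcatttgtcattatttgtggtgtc
Rpl28: ccccgcccctagtgTCTTTCTTTCCgtctc

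Runs of 8 or more C and T were common in these windows. Such a run lay in 24 of the 39 member windows (61.5%), against 11.4% of all 33469 promoter windows, and the share was the same in both subunits, with 8 of 13 small subunit genes and 16 of 26 large subunit genes. A C at the annotated start followed by 4 bases that are each C or T was found in 12 of 39 member windows (30.8%), against 2.63% of all windows. That stricter form was found in 2 of 13 small subunit windows and 10 of 26 large subunit windows. Of the 9 windows printed, Rpl39, Rps3a and Rpl28 hold it, and Rpl11 and Rps27l have no run longer than 3. The annotated start can lie a few bases from the true one, so a window without a match says only that these letters are not at that place.

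After the blockade the array signals of the ribosomal protein mRNAs were close to their control levels. By limma's moderated test with the pair as a block, 0 of the 50 probe sets passed the Benjamini-Hochberg adjusted threshold of 0.05, where the background is 0% of the 31099 probe sets in either direction. At an unadjusted p under 0.05, 2 probe sets were higher (Rps13 and Rpl11) and 0 lower, against a background of 1.84% higher and 2.68% lower over all probe sets. Neither an empirical Bayes fit with trend and robust settings nor a fit without the pairing gave an adjusted call. The smallest adjusted p among the members was 0.747.

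The size of the ratios bounds what could have been missed. The mean log2 ratio lay within ±0.15 (1.11-fold) in 43 of 44 genes, each taken at its brightest probe set, which is 97.7% against 71.1% of all genes. All 44 confidence intervals (95%, from the moderated test) lay within ±1 and 42 within ±0.5. The log2 ratios of the members were also less scattered than those of the array as a whole. Their SD over genes was 0.14, 0.13 and 0.11 in pairs 1, 2 and 3, against 0.37, 0.23 and 0.23 over all genes. In the same arrays, genes known to answer to neuronal activity had large ratios. Arc, which encodes a synaptic protein whose transcription follows activity, had 13.23, 11.66 and 13.23 with GabT and 10.66, 9.60 and 9.52 in control. Fos, an immediate early transcription factor, had 14.17, 13.91 and 14.75 with GabT and 13.11, 13.06 and 13.65 in control. Both groups were fully apart for Arc and Fos. The mean log2 ratios of the 5 activity genes examined (Arc, Nr4a1, Rgs2, Fos and Egr1) ran between 1.00 and 2.78, all 5 above 0 in all 3 pairs, and their unadjusted p was under 0.05 although none passed the adjusted threshold.

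**Figure D1:**
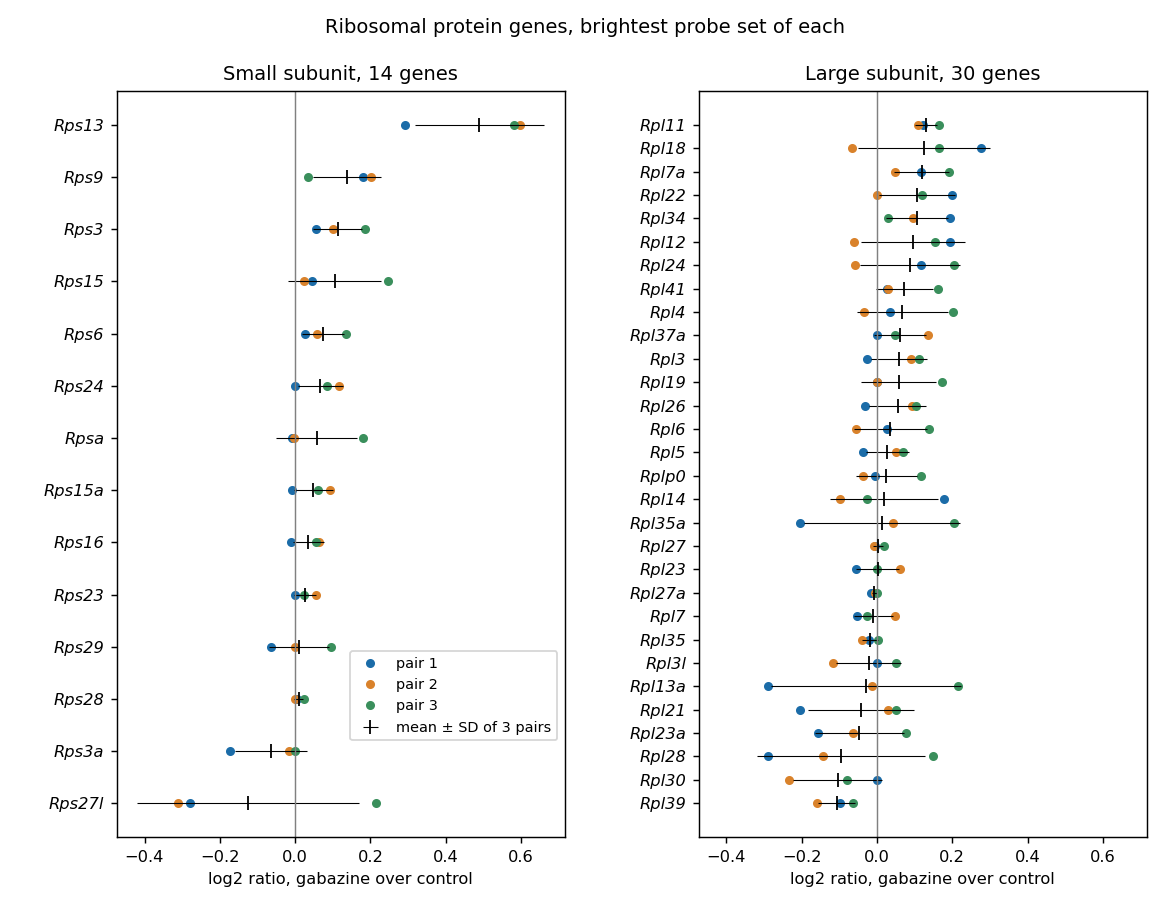
Log2 ratio, GabT over control, of each ribosomal protein gene at its brightest probe set (x axis) for the 14 small subunit genes (left) and 30 large subunit genes (right); dots are the 3 pairs and the bar is the mean ± SD. Apart from Rps13, whose mean is 0.49, every mean lies within 0.15 of 0. The dots of pair 3 lie above 0 for 37 of 44 genes, against 6834 of all 14218 genes, which are not drawn.

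The median of the mean log2 ratios over the 44 genes was 0.035 (1st to 3rd quartile −0.008 to 0.077), against −0.005 over all genes, and it turned to −0.001 after quantile normalization, against −0.017 over all genes. The mean was above 0 in 32 of the 44 genes (72.7%), against 46.4% of all genes. As deposited, the highest median was that of pair 3, where it was 0.10 and 37 of 44 genes had a ratio above 0, while pairs 1 and 2 had a median of 0 with 17 and 21 genes above 0. Over all 14218 genes 4816, 4873 and 6834 had a ratio above 0 in pairs 1, 2 and 3, where a ratio of exactly 0 is not counted as above. The median of pair 3 over all genes was 0. Bright probe sets at large also had a median above 0 in pair 3. All 2158 probe sets with a mean log2 intensity of 12 or more, a limit set after the members' values were seen, had medians of −0.07, 0.01 and 0.05 in pairs 1, 2 and 3. In pair 3, 1356 of them were above 0. Which pair stood highest depended on the scaling: after cyclic loess the members' medians were 0.09, −0.05 and 0.01 in pairs 1, 2 and 3, while after median centring (−0.08, 0.01 and 0.12) and quantile normalization (−0.03, −0.01 and 0.05) pair 3 stayed highest. The 1 reference transcript measured, Gapdh (a glycolytic enzyme often used as a loading control), had log2 ratios of 0.03, 0.02 and 0.14, the highest in the same pair. Without pair 3 the members' median was 0.005.

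In all 3 pairs, 9 of 44 genes were higher with GabT and 1 was lower, that is 20.5% and 2.27%, against a background of 7.79% higher and 10.8% lower over all genes. Counted over all 50 probe sets, 9 were higher and 3 lower, against 6.92% and 9.49% of all probe sets, the added lower ones being dimmer probe sets of Rpl7 and Rpl14. These counts depended on the scaling of the arrays. With each array centred on its median 6 were higher and 2 lower (13.6% and 4.55%, against 12.7% and 10.7% of all genes). After cyclic loess 5 were higher and 5 lower (11.4% each, against 17.3% and 13.2%). After quantile normalization of the 6 arrays 4 were higher and 7 lower (9.09% and 15.9%, against 11.8% and 17.7%). The share of members higher was thus near or below that of all genes under each of these 3 scalings. Of the 9 genes, 4 stayed higher in all pairs after quantile normalization (Rps13, Rps3, Rps6 and Rpl11). Rpl39 stayed lower under every scaling tried. Exact ties were less common among the members than on the array. Of the 50 probe sets 13 had an identical value in both arrays of at least 1 pair, against 47.4% of all probe sets. At the brightest probe sets 12 of 44 genes were tied, against 6074 of all 14218. A tie counts as neither higher nor lower, so ties lower the shares of all genes more than those of the members.

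Rps13 had the highest ratio of the small subunit and of the whole family. It encodes uS15, the counterpart of a bacterial protein that binds rRNA early in the assembly of the small subunit. Its probe set read 8.43, 8.35 and 9.41 with GabT and 8.14, 7.75 and 8.83 in control. The GabT value exceeded its own control in each pair, yet the groups overlapped, because the replicas differ by more than the treatment. The mean log2 ratio was 0.49 ± 0.17 (SD, n = 3 pairs; confidence interval 0.21 to 0.77; limma unadjusted p = 0.0118, adjusted p = 0.747). The measure on which the methods rest is the share of probe sets at least as high in all 3 pairs. It was 0.00225 for Rps13, and no other member reached 0.005 in either direction. This share is not a p-value. It was computed for the members only, so how many of all probe sets reach 0.005 is not known. A brighter probe set that also carries Rps13 among 4 symbols, and so is not counted as a member, read 14.01, 13.61 and 14.31 with GabT and 13.93, 13.69 and 14.20 in control. Its log2 ratios of 0.07, −0.07 and 0.11 do not share the direction of the dimmer one in every pair.

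Among the other small subunit genes, 4 were higher with GabT in all 3 pairs, by much less. Rps9 encodes uS4, a protein at the mRNA entry side of the small subunit, and read 14.06, 13.33 and 13.97 with GabT and 13.88, 13.13 and 13.94 in control. Rps3 encodes uS3, which also lies at the mRNA entry and has a described DNA repair activity, and read 14.04, 13.58 and 14.31 with GabT and 13.98, 13.48 and 14.13 in control. Mean log2 ratios were 0.14 ± 0.09 for Rps9 and 0.11 ± 0.07 for Rps3 (SD, n = 3 pairs), with both adjusted p-values at 0.747 by limma. For both genes the GabT and control ranges overlapped.

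Rps6 is the member most used as a readout of neuronal activity, through phosphorylation of its protein, which these arrays do not measure. Its mRNA read 14.41, 13.97 and 14.44 with GabT and 14.39, 13.91 and 14.31 in control, a mean log2 ratio of 0.07 ± 0.06 (SD, n = 3 pairs). Rps15, which encodes uS19 near the decoding centre, was also above its control in each pair, with log2 ratios of 0.05, 0.02 and 0.25. Centring each array on its median took Rps3, Rps6 and Rps15 off the list of genes higher in all 3 pairs.

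At the lower end of the small subunit stood Rps27l, Rps3a and Rps28. Rps27l is a paralog of Rps27 that is induced by p53 in human cells. It read 8.94, 10.93 and 11.87 with GabT and 9.22, 11.24 and 11.65 in control, so that replica 1 was far below the others in both conditions. Its log2 ratios of −0.28, −0.31 and 0.21 changed sign between pairs. Rps3a, which encodes eS1, had log2 ratios of −0.17, −0.02 and 0. Rps28 lay closest to 0 among the small subunit genes named, at 13.69, 13.46 and 13.27 with GabT and 13.68, 13.46 and 13.25 in control, and the sign of its mean ratio of 0.01 turned under median centring and quantile normalization. Rpsa encodes uS2, also known as a laminin receptor, and its 3 probe sets gave means of 0.06, 0.12 and 0.01.

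In the large subunit the strongest case was Rpl11. Its protein, uL5, joins the ribosome with uL18 and 5S rRNA, and when free it binds Mdm2, the ligase that degrades p53. It read 14.09, 13.68 and 14.30 with GabT and 13.97, 13.57 and 14.14 in control. The pairs were alike, with log2 ratios of 0.12, 0.11 and 0.16, a mean of 0.13 ± 0.03 (SD, n = 3 pairs; confidence interval 0.03 to 0.23; limma unadjusted p = 0.0268, adjusted p = 0.747). Rpl5, which encodes the partner uL18, read 13.77, 13.50 and 14.12 with GabT and 13.80, 13.45 and 14.05 in control, with a mean log2 ratio of 0.03 ± 0.06 (SD, n = 3 pairs), which is below 0 after quantile normalization.

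The RNA partner of these proteins has a control probe set on the array. The 5S rRNA probe set read 9.37, 8.12 and 9.40 with GabT and 8.84, 6.99 and 9.06 in control. It was higher with GabT in each pair, by 0.53, 1.13 and 0.35 (limma unadjusted p = 0.0442, adjusted p = 0.747). 5S rRNA is not polyadenylated, unlike the mRNAs. In pair 2, where the 5S ratio was largest, the median of the bacterial hybridization controls (BioB, BioC and BioD, 14 probe sets) was −1.81, with 0.02 and −0.05 in pairs 1 and 3, and its part in the 5S ratio was not tested.

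Rpl7a, which encodes eL8, read 14.53, 14.11 and 14.86 with GabT and 14.42, 14.06 and 14.67 in control, and was higher in each pair with a mean log2 ratio of 0.12 ± 0.07 (SD, n = 3 pairs). Rpl34 and Rpl41 were also higher in each pair, with means of 0.11 and 0.07. Rpl41 encodes the smallest ribosomal protein, a peptide of basic residues. Rpl18 had a mean as high as that of Rpl7a, 0.12 ± 0.18 (SD, n = 3 pairs), but its ratios of 0.28, −0.07 and 0.17 did not share a sign. Rplp0 encodes uL10, the base of the stalk that recruits translation factors, and is often used as a reference gene. It read 14.07, 13.66 and 14.64 with GabT and 14.08, 13.70 and 14.52 in control. Its mean log2 ratio of 0.02 ± 0.08 (SD, n = 3 pairs) turned below 0 after quantile normalization and without pair 3.

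The only gene lower with GabT in all 3 pairs at its brightest probe set was Rpl39, which encodes eL39, a short protein in the wall of the exit tunnel. It read 9.24, 8.97 and 10.65 with GabT and 9.34, 9.13 and 10.72 in control, with a mean log2 ratio of −0.11 ± 0.05 (SD, n = 3 pairs; limma adjusted p = 0.747). The difference within each pair was small beside that between replica 3 and the others. Rpl30 (eL30) had log2 ratios of 0, −0.23 and −0.08, and Rpl28 (eL28) of −0.29, −0.14 and 0.15. For both genes brighter probe sets with several symbols exist. Rpl30 is on 2 of them, at −0.14, 0.02 and 0.01 for the one with 5 symbols and 0.18, −0.09 and 0.26 for the one with 3, which include Rps10. Rpl28 is on 1 with 3 symbols, at 0.14, −0.08 and 0.08.

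**Figure D2:**
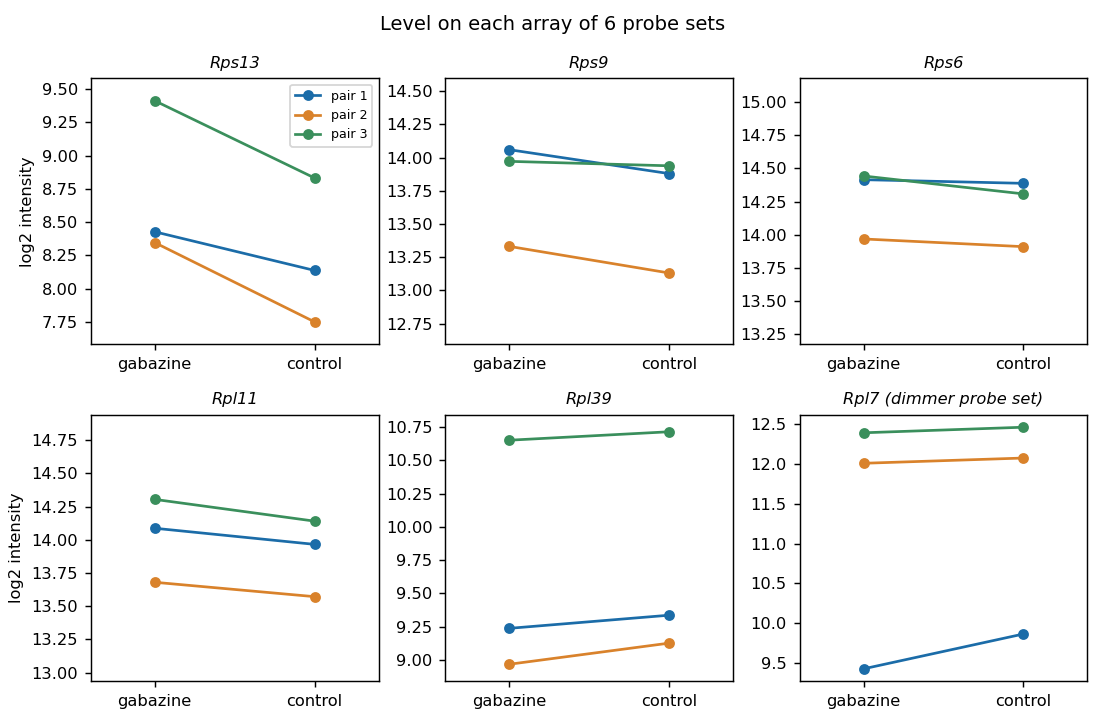
Log2 intensity (y axis, each panel with its own range) on the 6 arrays for 6 probe sets, GabT at left and control at right, with the arrays of a pair joined by a line. The lines for Rps13 and Rpl11 fall toward control in each pair and those for Rpl39 climb toward control, while in each panel the range over the pairs is larger than the step between conditions.

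Rpl3l replaces Rpl3 in the ribosomes of heart and skeletal muscle. In these cultures its probe set read 5.77, 5.68 and 6.60 with GabT and 5.77, 5.80 and 6.55 in control, with a mean log2 ratio of −0.02 ± 0.09 (SD, n = 3 pairs). No detection measure was used here, so whether this is signal or background is not known. Rpl3, which encodes uL3 at the peptidyl transferase centre, had a mean of 0.06 at its brighter probe set and −0.08 at the other.

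The probe sets of one gene did not always share a direction. Rps24 differed most, with a mean log2 ratio of 0.07 at the brighter probe set and −0.13 at the dimmer one. Rpl7, with −0.01 and −0.19, came next. The dimmer probe set of Rpl7 read 9.43, 12.01 and 12.39 with GabT and 9.87, 12.07 and 12.46 in control. Most of its mean thus came from replica 1, in which it was lowest in both conditions. Ribosomal protein genes have many processed copies in mammalian genomes, so probe sets of this family can share signal with near-identical sequences. The 32 probe sets whose several symbols include a member of the family had a median log2 ratio of 0.062. Of them 26 were above 0, against 49.2% of all probe sets. In all 3 pairs 7 were higher and 0 lower (21.9% and 0%), against 6.92% and 9.49% of all probe sets. Over all probe sets with a mean log2 intensity of 12 or more, those shares were 14.2% and 9.08%.

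Direction went with the brightness of the probe set. Of the 40 member probe sets with a mean log2 intensity of 12 or more, a limit set after their values were seen, 33 had a mean log2 ratio above 0, with a median of 0.052. Of the 10 below 12, 9 had a mean below 0 and only Rps13 was above, with a median of −0.10. Over all probe sets of the array the split was 52.0% above 0 at 12 or more and 49.0% below 12. The 40 brighter members held 8 probe sets higher and 0 lower in all 3 pairs, against 14.2% and 9.08% of all probe sets at 12 or more, and the 10 dimmer ones 1 and 3, against 6.38% and 9.52% of all those below 12. The SD of the log2 ratios of the 40 was 0.12, 0.07 and 0.08 in pairs 1, 2 and 3, and that of all 2158 probe sets at 12 or more was 0.27, 0.19 and 0.20, a set matched on this floor only. Brightness differs between probe sets for reasons of their oligonucleotides as well as of the transcript, and its part in the direction was not tested.

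**Figure D3:**
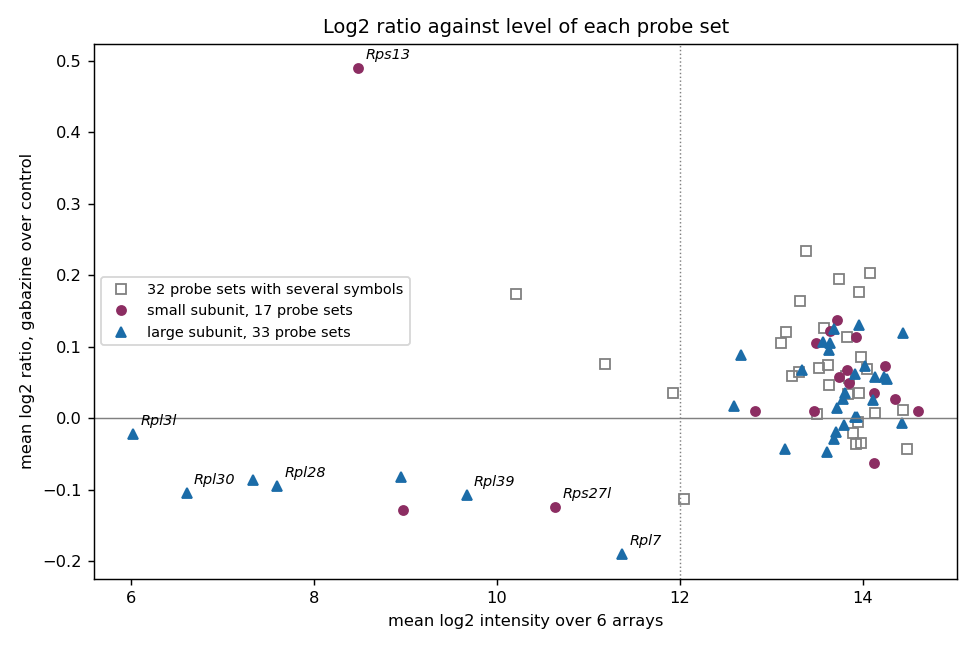
Mean log2 ratio, GabT over control (y axis), against mean log2 intensity over 6 arrays (x axis) for 17 small subunit probe sets (circles), 33 large subunit probe sets (triangles) and 32 probe sets with several symbols (open squares); the dotted line marks 12. To the right of it 33 of 40 member probe sets lie above 0, and to the left 9 of 10 lie below.

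The difference between small and large subunit genes was within the spread of the pairs. The median of the mean log2 ratios was 0.053 in the 14 small subunit genes and 0.026 in the 30 large subunit genes, a difference of 0.027. Within pairs the small minus large difference of medians was 0.002, 0.063 and −0.018, a mean of 0.016 ± 0.042 (SD, n = 3 pairs), so its sign differed between pairs. With 3 pairs an exact sign-flip test cannot go below a two-sided p of 0.25. In all 3 pairs 5 of 14 small subunit genes were higher and 0 lower (35.7% and 0%). Of the 30 large subunit genes 4 were higher and 1 lower (13.3% and 3.33%). Over all genes the shares were 7.79% higher and 10.8% lower. After quantile normalization the counts higher and lower were 3 and 2 for the small and 1 and 5 for the large subunit, against 11.8% and 17.7% of all genes.

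The order of the genes was compared between pairs. Across the 44 genes the log2 ratios of pairs 1 and 2, 1 and 3, and 2 and 3 had Pearson correlations of 0.43, 0.21 and 0.47, and 0.30, −0.01 and 0.02 without Rps13, against 0.05, 0.38 and 0.06 across all genes. Spearman correlations over all 44 genes were 0.21, 0.22 and 0.05. These run across genes, which are not independent replicates.

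For each of the 44 genes the range over the 3 control arrays exceeded the mean ratio in size, as it did in 14131 of all 14218 genes. The GabT and control arrays were fully apart in 0 of 44 genes, against 0.295% of all genes. The median control range was 0.63 for the members and 1.07 for all genes. With each array centred on its median, these ranges were 0.41 and 0.54. The control range still exceeded the mean ratio in 42 of 44 genes, and in 13563 of all 14218, so the members were like the array here. The exceptions among the members were Rps9, with a centred control range of 0.018 and a mean log2 ratio of 0.14, and Rpl41, with 0.039 and 0.07. Values equal to the last digit occurred in 16.1% to 25.7% of probe sets between the arrays of a pair and in 0% between arrays of different pairs. Whether the pairs were summarized separately is not stated, so levels set across replicas may carry a processing step of their own, while the ratios are within a pair.

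Other genes linked to the translation apparatus were taken from lists chosen by a known TOP start or by function. The 15 measured TOP genes outside the naming rule include Rack1, a scaffold on the small subunit, and the non-coding Gas5. Their median log2 ratio was 0.040. In all 3 pairs 1 was higher (Naca, a subunit of the nascent polypeptide associated complex, 0.17) and 1 lower (Gas5, −0.25). That is 6.67% each, against 7.79% higher and 10.8% lower of all genes. The 29 initiation factors had a median of 0.023, again with 1 higher (Eif4h, a helper of the Eif4a helicase, 0.24) and 1 lower (3.45% each). The 59 ribosome biogenesis factors stood at −0.11, with 2 higher and 8 lower in all 3 pairs (3.39% and 13.6%). The 70 mitochondrial ribosomal proteins had a median of −0.025, with 2 higher and 9 lower (2.86% and 12.9%). In these lists 0 genes passed the adjusted threshold by limma, and at an unadjusted p under 0.05 there were 1, 1, 0 and 1 higher and 0, 0, 1 and 0 lower. Each of the 4 lists had its highest median in pair 3, as the ribosomal proteins did. The biogenesis factors include proteins that shape rRNA or assemble the subunits in the nucleolus, and also RNA polymerase I genes and Myc. Their median was −0.09, −0.23 and 0.07 in pairs 1, 2 and 3.

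**Figure D4:**
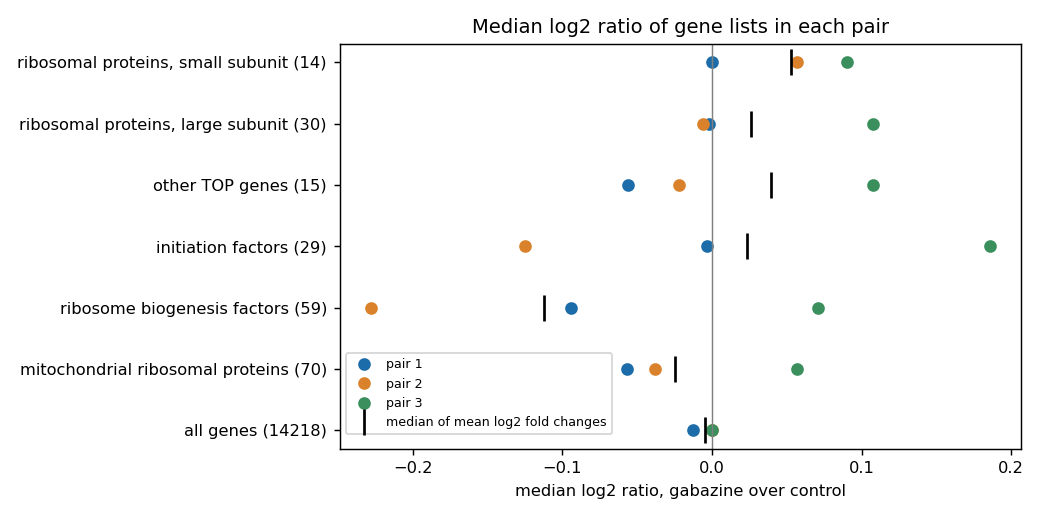
Median log2 ratio, GabT over control (x axis), of each gene list in pairs 1, 2 and 3 (dots), with the median of the mean log2 ratios as a bar; the number of measured genes is in parentheses. In all 6 lists the dot of pair 3 lies farthest to the right, between 0.057 and 0.19. In that pair the median over all genes is 0, and over all probe sets with a mean log2 intensity of 12 or more, which are not drawn, it is 0.051.

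Signs of RNA quality and cell type markers were not alike in the pairs either. For the 3 rat control transcripts (Gapdh, beta-actin and hexokinase) the log2 ratio at the 5′ minus that at the 3′ probe sets was taken. Its median was 0.50, −0.02 and −0.08 in pairs 1, 2 and 3. Over all 20 control transcripts of the array, most of them not labelled as rat, it was 0.40, 0.04 and −0.01. Markers of neurons, astrocytes and oligodendrocytes were bright in all arrays, with a mean log2 intensity of 11.9 to 12.8 with GabT and 11.8 to 12.6 in control for 6 neuronal genes. The 4 choroid plexus markers ran between 7.70 and 9.30 with GabT and between 7.61 and 7.97 in control. Oligodendrocyte markers had log2 ratios of 0.34, 0.33 and 0.09, with 3 of 4 measured genes higher in all 3 pairs. Markers of excitatory neurons had −0.22, 0.64 and 0.13, and those of GABAergic interneurons 0.37, −0.18 and 0.06, so both differed in sign between pairs. The part of these differences in the members' ratios was not tested.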

How the data were processed

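Cultures of rat hippocampus were profiled on 6 arrays. Robust Multi-array Average (RMA) was run by the authors on the array scans to give the deposited log2 intensities (version: not given in the sources used here). A detection measure is not part of the values, and the number of arrays limits the precision. All 6 arrays were used and 0 columns were left out. The log2 ratio of each pair was fitted in limma 3.58.1 under R 4.3.3, blocking on the pair (2 residual degrees of freedom), and p-values were Benjamini-Hochberg adjusted over 31099 probe sets. The pairing comes from the shared litter of each replica; around the group means, the arrays of a pair deviated together (correlations of 0.794, 0.664 and 0.853). Gene-level values use the brightest probe set. Probe sets with several symbols (436) or none (9831) were named as no gene; Rplp1, Rplp2, Rps27 and Rps27a have no singly named probe set. Members, lists and alternatives were chosen with earlier results of these data known, so no test over a list was made. Named genes are the 5 of smallest p per direction, the 3 highest and 3 lowest of each subunit, Rplp0, Rpsa, Rps6, Rpl5, Rpl11, Rpl3, Rpl41, paralogs ending in l with their namesakes, and the 3 whose probe sets differ most. Rps15, Rpl34, Rpl14, Naca, Eif4h, Gas5 and Myc were named after their values were seen. The fit was run on simulated data with known changes, where only the median estimate of an increase had to come out right, not the number of calls. Alternatives were other scalings, a fit without pairing, each pair left out, a filter on dim or tied probe sets, other summaries per gene, and the methods' joint distribution, computed without its Kaplan-Meier bounds.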

Additional observations from a re-analysis of the deposited data

How the results depend on the processing

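Over all alternatives 0 members passed the adjusted threshold. The methods' joint distribution, which is not adjusted, named 1 of 50 member probe sets at 0.005 (2%, Rps13). That measure was computed for the members only, so the share of all probe sets it would name was not counted. The brighter probe set that carries Rps13 among 4 symbols had log2 ratios of 0.07, −0.07 and 0.11. The fit without the replicate block changed no call, with 0 members at an unadjusted p under 0.05. The median over the 44 genes lay between −0.001 (quantile normalization) and 0.059 (without replicate 1), and the small minus large difference between 0.004 and 0.038. The count of genes higher in all pairs ranged from 9 to 19 and the count lower from 2 to 11 when 1 replicate was left out, where only 2 pairs have to share a sign. Without replicates 1, 2 and 3 in turn, 43.2%, 36.4% and 20.5% of members were higher, against 17.2%, 21.4% and 11.7% of all genes, and 6.82%, 4.55% and 25% were lower, against 14.4%, 21.5% and 25.1%. Quantile normalization gave 4 higher and 7 lower, and cyclic loess gave 5 of each. The count lower was 2 with arrays centred on their medians, 2 with a gene's probe sets averaged, and 0 among probe sets at 12 or more, a setting chosen after seeing the data. The cause was not tested. Of 202 values for 21 named genes 193 kept their sign and 9 reversed: Rps28 was −0.0048 with arrays centred on their medians and −0.033 after quantile normalization, which also gave −0.0043 for Rpl5 and −0.014 for Rplp0. Leaving out 1 replicate gave ranges across 0 for Rpl28 (−0.22 to 0.0022), Rpl7 (−0.039 to 0.011), Rpl3l (−0.059 to 0.025), Rplp0 (−0.021 to 0.056) and Rpsa (−0.0043 to 0.089), of which Rpl28 and Rpl7 turned without replicate 1, Rpl3l without 2, and the others without 3. Signal over background is not known, which limits dim probe sets most.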

Other observations

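Ribosomal protein genes outside the naming pattern were measured for 4 of 12 listed symbols. Rack1, a scaffold on the small subunit, had log2 ratios of −0.08, −0.08 and 0.05, and Rpl26l1, a paralog of Rpl26, had 0.02, −0.19 and 0. Rpl7l1, a paralog of Rpl7 with a role in ribosome assembly, had 0.73, −0.21 and 0.10, the widest spread of the 4, and Rps4y2 had 0.10, 0.02 and −0.10. None of the 4 shared a sign in all 3 pairs.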
